A study of Rattus norvegicus with 18 samples.

Results

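The alpha-defensin region of rat chromosome 16 is described here across 18 libraries of intestinal tissue. The genes were chosen by place and level: they lie between 70349567 and 70590626 on chromosome 16 (mRatBN7.2), a stretch of 241 kb, and reach at least 10 CPM (counts per 1000000 of a library's total count) in at least 1 library. Of the 30562 genes in the count table, 14 lie wholly inside these limits and 7 reach the level. Because the level was part of the choice, the levels below are a description. The tests between groups use the same values and are printed for the record. The members reached the level only in irradiated or control libraries, so the choice favours a gap between those groups and the irradiated plus formula group. For that reason nothing is read from fold changes or unadjusted p-values set beside those of all genes.

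Bulk poly(A) RNA-seq was made from the intestine of wild-type Sprague-Dawley rats, an outbred stock, with 6 libraries in each of 3 groups. The irradiated plus formula group was exposed once to X-rays, at 10 Gy, and later given Changbing Formula; the irradiated group had the same exposure without it, and the control group had neither. The labels name neither the bowel segment nor the sex, age, dose of formula or time of collection, and 12 descriptions call irradiated rats untreated, so groups were taken from the titles. The labels do not say that each library is a separate animal, so p-values measure the spread between libraries, which may be technical. Library totals lay between 33598572 and 48398184 counts. The table identifies genes by Ensembl ID without symbols, and 0 of the 30562 IDs matched the RefSeq gene table, so no member can be given a gene name or checked to be an alpha-defensin gene, and lysozyme, matrilysin and the other markers of Paneth cells or of any other cell type could not be looked up. That the tissue is small bowel, large bowel or holds Paneth cells was therefore not checked against markers.

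Alpha-defensins are small cationic peptides, held together by disulphide bonds, that kill microbes by disrupting their membranes. Paneth cells at the base of small intestinal crypts store them in granules and release them into the crypt, and rat and human neutrophils carry related alpha-defensins in their granules. In the mouse, matrilysin (Mmp7) cuts the Paneth cell propeptides into their active form. The healthy large bowel has few or no Paneth cells, so the alpha-defensin transcripts that Paneth cells make are known as markers of small intestinal crypts.

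The RefSeq table of the later assembly GRCr8 lists 14 genes with alpha-defensin symbols, all on chromosome 16 within 204 kb, of which 9 are protein coding, 3 are pseudogenes and 2 are other RNAs. Its promoter table holds 4 of the 14, which are shown to compare them with each other, and the rest could not be compared in this way. Each line gives 150 bases before and 30 bases after the annotated start, 5′ to 3′, and none is paired with an Ensembl ID. Capitals mark the motif ATCAAAG, a form of the core element bound by TCF/LEF factors, the nuclear arm of Wnt signalling. They also mark the motif TTAAATA, which resembles a core promoter box. Either motif was searched on both strands.
Defa9 (plus strand, chr16:77184118-77184297): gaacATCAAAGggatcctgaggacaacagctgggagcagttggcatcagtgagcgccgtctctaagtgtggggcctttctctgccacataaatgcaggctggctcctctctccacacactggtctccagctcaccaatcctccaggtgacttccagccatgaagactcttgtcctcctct
Np4 (minus strand, chr16:77199613-77199792): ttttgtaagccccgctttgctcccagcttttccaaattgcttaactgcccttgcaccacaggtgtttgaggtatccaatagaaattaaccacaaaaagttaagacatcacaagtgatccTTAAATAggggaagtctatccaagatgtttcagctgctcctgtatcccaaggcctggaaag
Defa11 (minus strand, chr16:77238012-77238191): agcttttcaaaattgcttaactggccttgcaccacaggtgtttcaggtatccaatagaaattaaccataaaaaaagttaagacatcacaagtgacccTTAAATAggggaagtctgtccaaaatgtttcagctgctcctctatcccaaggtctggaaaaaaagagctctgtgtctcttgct
RatNP-3b (minus strand, chr16:77248948-77249127): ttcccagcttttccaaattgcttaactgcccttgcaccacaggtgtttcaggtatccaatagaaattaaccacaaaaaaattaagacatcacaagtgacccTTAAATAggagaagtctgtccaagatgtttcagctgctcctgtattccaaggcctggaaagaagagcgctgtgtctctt

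The Np4, Defa11 and RatNP-3b windows are close copies of each other. Defa11 and RatNP-3b were identical at 89.2% of 185 aligned columns, Np4 and RatNP-3b at 77.9% of 199, and Np4 and Defa11 at 71.6% of 204. Defa9 stood apart from these, with identities of 41.2% to Np4, 45.6% to RatNP-3b and 49.2% to Defa11. The ATCAAAG match begins 146 bases before the Defa9 start, and 2.06% of the 33469 windows of the same length hold one. TTAAATA begins 31 bases before the start in Np4, 53 in Defa11 and 49 in RatNP-3b, and 2.53% of the windows hold it. A match describes letters only.

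In the Ensembl annotation of mRatBN7.2 the 7 members fall into 2 structural types. Of the members, 5 have 2 exons and a span of about 1 kb: ENSRNOG00000030524 on the minus strand, at 70349567 to 70350603, and ENSRNOG00000029462 (70371518 to 70372353), ENSRNOG00000029522 (70405268 to 70406142), ENSRNOG00000062395 (70433166 to 70434059) and ENSRNOG00000068468 (70481821 to 70482717) on the plus strand. The 4 on the plus strand share a first exon of 172 bases, followed by an intron of 572, 587, 582 and 585 bases and a second exon of 92, 116, 140 and 140 bases. The remaining 2 members have 4 exons each: ENSRNOG00000038135 on the minus strand, at 70513888 to 70546522, with a gap of 30504 bases before its last exon, and ENSRNOG00000038129 on the plus strand, at 70588116 to 70590626, the member farthest along the chromosome. No member shares exon bases with another annotated gene. The exonic length is a multiple of 3 in 5 of the 7 members (264, 288, 312, 312 and 504 bases), against 42.5% of all genes, so those models may hold coding sequence alone, and levels per kilobase are approximate.

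**Figure D1:**
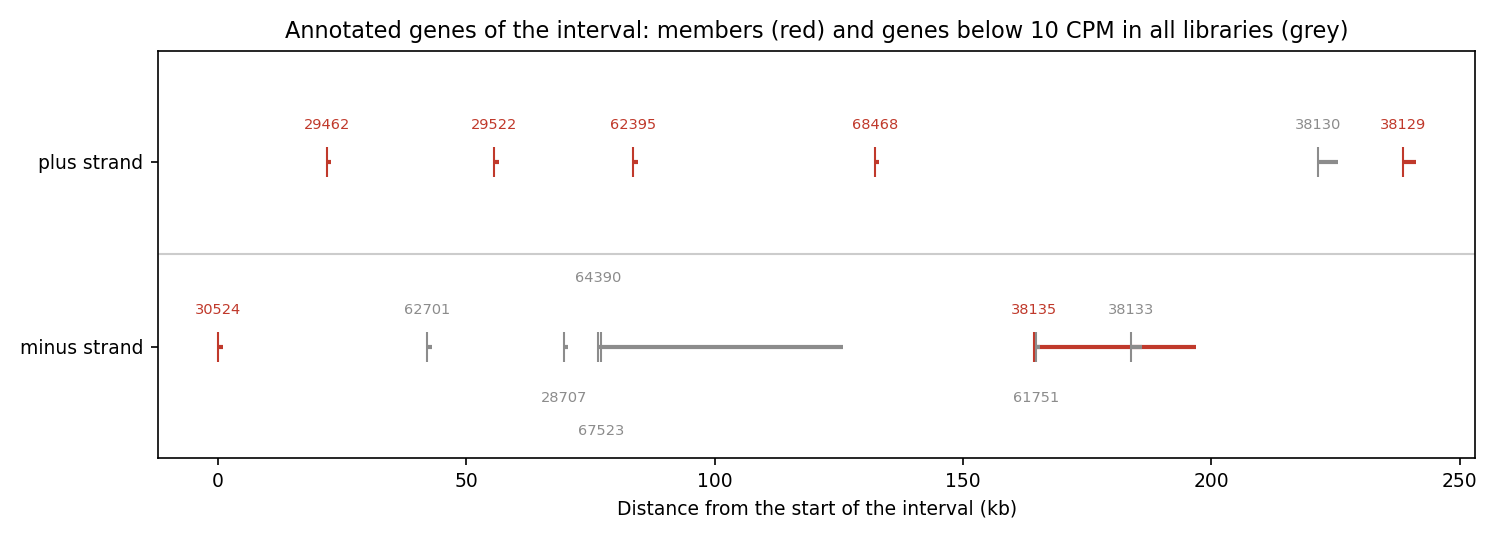
The 14 annotated genes of the interval by strand, with distance from the interval's start in kb on the horizontal axis; red marks the 7 members, grey the 7 genes below 10 CPM in every library, and each gene carries the last 5 digits of its ID, with a tick at its lowest coordinate. The members are spread along the whole interval, with 5 on the plus and 2 on the minus strand.

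The 7 genes of the interval that missed the level were close to silent: 5 had a count of 0 in all 18 libraries, ENSRNOG00000061751 had 4 counts in control 2 alone, and ENSRNOG00000038130 reached 0.333 CPM at most. The member nearest the level on the upper side, ENSRNOG00000038129, reached 63.9 CPM. No gene of the interval had a highest level between those values, so any level from 1 to 10 CPM gives the same 7 genes.

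Transcripts of the cluster were abundant in 3 libraries and scarce in the other 15. Those ran from 0 counts in control 5 to 170 counts, or 4.65 CPM, in irradiated 5. The summed level of the 7 members was 1852 CPM in irradiated 1, 570 CPM in irradiated 4 and 2725 CPM in control 2. The 95% Wilson intervals were 1838 to 1866, 563 to 578 and 2708 to 2741 CPM. They cover counting error only, and too narrowly, since reads of a pair were mostly counted separately. In irradiated plus formula libraries the lowest, median and highest sums were 0.179, 0.887 and 1.81 CPM. In irradiated libraries they were 0.110, 3.19 and 1852 CPM, and in control libraries 0, 0.148 and 2725 CPM. The high libraries thus came from both the irradiated and the control group, none came from the irradiated plus formula group, and every group overlapped the others. In control 2 the most abundant member ranked 162nd among all genes of the library by CPM, and the cluster took 0.272% of its counts. In a bulk tissue, fewer cells of a type and less RNA per cell cannot be told apart.

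The share of counts from mitochondrial genes was 16.5% in irradiated 1, 5.77% in irradiated 4 and 9.30% in control 2, against 12.8% to 39.7% in the other 15 libraries, so irradiated 4 and control 2 lay below that range and irradiated 1 inside it. Their total counts, 37225766, 42158799 and 38138777, lay within the range of the rest. The part of this share in the cluster's levels was not tested.

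**Figure D2:**
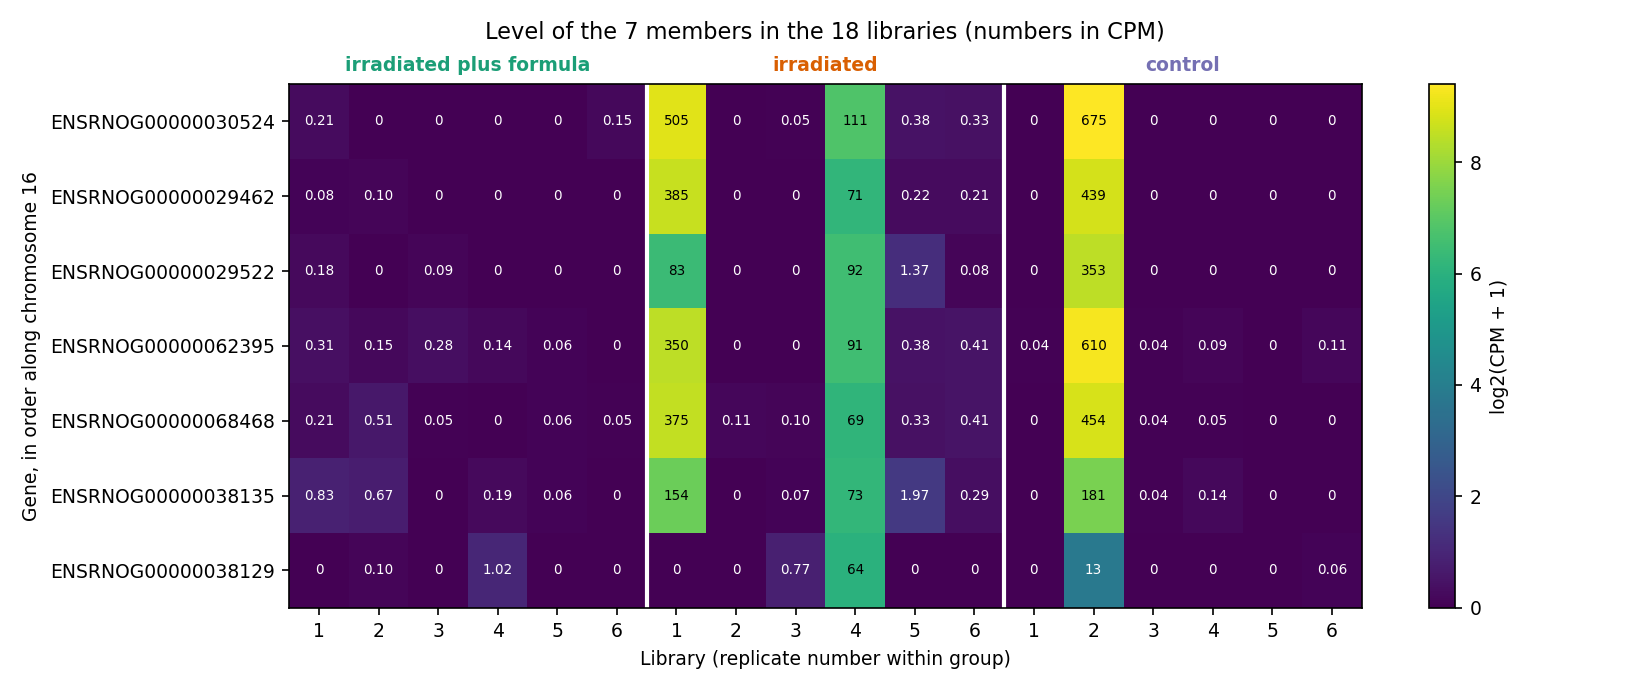
Level of each member (rows, in chromosome order) in each library (columns, by group and replicate), coloured by log2(CPM + 1) and printed in CPM. Irradiated 1, irradiated 4 and control 2 stand out in the first 6 rows, and in the last row irradiated 4, at 63.9 CPM, exceeds control 2, at 12.8 CPM, while irradiated 1 is at 0.

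Among the members with 2 exons, ENSRNOG00000030524 had the highest CPM. It stood at 505 CPM in irradiated 1, 111 CPM in irradiated 4 and 675 CPM in control 2. The lowest, median and highest levels were 0, 0 and 0.207 CPM in irradiated plus formula libraries, 0, 0.357 and 505 CPM in irradiated libraries and 0, 0 and 675 CPM in control libraries. Apart from the high libraries it reached 0.383 CPM in irradiated ones and had no count in control ones. The limit that a count of 0 allows, taken as 3 counts, lies between 0.0620 and 0.0893 CPM over the 18 libraries. The 15 low libraries thus held this transcript at a few times that limit or below it. Reads of a pair were mostly counted separately, so the true limit is higher.

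ENSRNOG00000029462 was next in irradiated 1 only, with 385 CPM in irradiated 1, 71.4 CPM in irradiated 4 and 439 CPM in control 2, and no more than 0.219 CPM in any other library. ENSRNOG00000062395 stood at 350, 90.7 and 610 CPM in the same libraries, and at most 0.413 CPM elsewhere. ENSRNOG00000068468 stood at 375, 69.1 and 454 CPM, and at most 0.512 CPM elsewhere. For these 3 genes, as for ENSRNOG00000030524, control 2 was highest, irradiated 1 next and irradiated 4 far lower, at 0.149 to 0.164 times control 2. Of all 7 members, ENSRNOG00000062395 and ENSRNOG00000068468 had a count in the most libraries, 14 each.

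ENSRNOG00000029522 departed from that order. It had 82.9 CPM in irradiated 1, 91.6 CPM in irradiated 4 and 353 CPM in control 2, so irradiated 1 was at 0.235 times control 2, where the other 4 members with 2 exons were at 0.573 to 0.876 times. Its share of the cluster's counts was 4.48% in irradiated 1 (95% Wilson interval 4.32 to 4.63%), 16.1% in irradiated 4 (15.6 to 16.5%) and 13% in control 2 (12.8 to 13.2%). The intervals do not overlap, but reads of a pair were mostly counted separately, so the counting error is larger than they state, and with 1 library each the spread between libraries is unknown. In irradiated 5, where the cluster had 170 counts, this gene held 29.4% of them (23.1 to 36.7%).

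ENSRNOG00000038135, with 4 exons, was at 154 CPM in irradiated 1, 72.9 CPM in irradiated 4 and 181 CPM in control 2, and reached 1.97 CPM in irradiated 5. Its share of the cluster's counts varied widely among the low libraries. It held 45.7% of 70 counts in irradiated plus formula 1 and 43.3% of 60 in irradiated plus formula 2, and 42.4% of 170 in irradiated 5 and 16.7% of 84 in irradiated 6. Yet it held 13.8% of 58 in irradiated plus formula 4 and 7.5% of 40 in irradiated 3. It held 0 of 18 in irradiated plus formula 3, where the Wilson interval reaches 17.6%. ENSRNOG00000038129 held 75.9% of the counts in irradiated plus formula 4 and 77.5% in irradiated 3. Without that gene, the share of ENSRNOG00000038135 was 57.1% of 14 counts in irradiated plus formula 4 and 33.3% of 9 in irradiated 3. In the high libraries its share was 8.34% in irradiated 1, 12.8% in irradiated 4 and 6.64% in control 2. A pair of annotated genes lies inside its 30504-base gap, neither sharing exon bases with it.

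**Figure D3:**
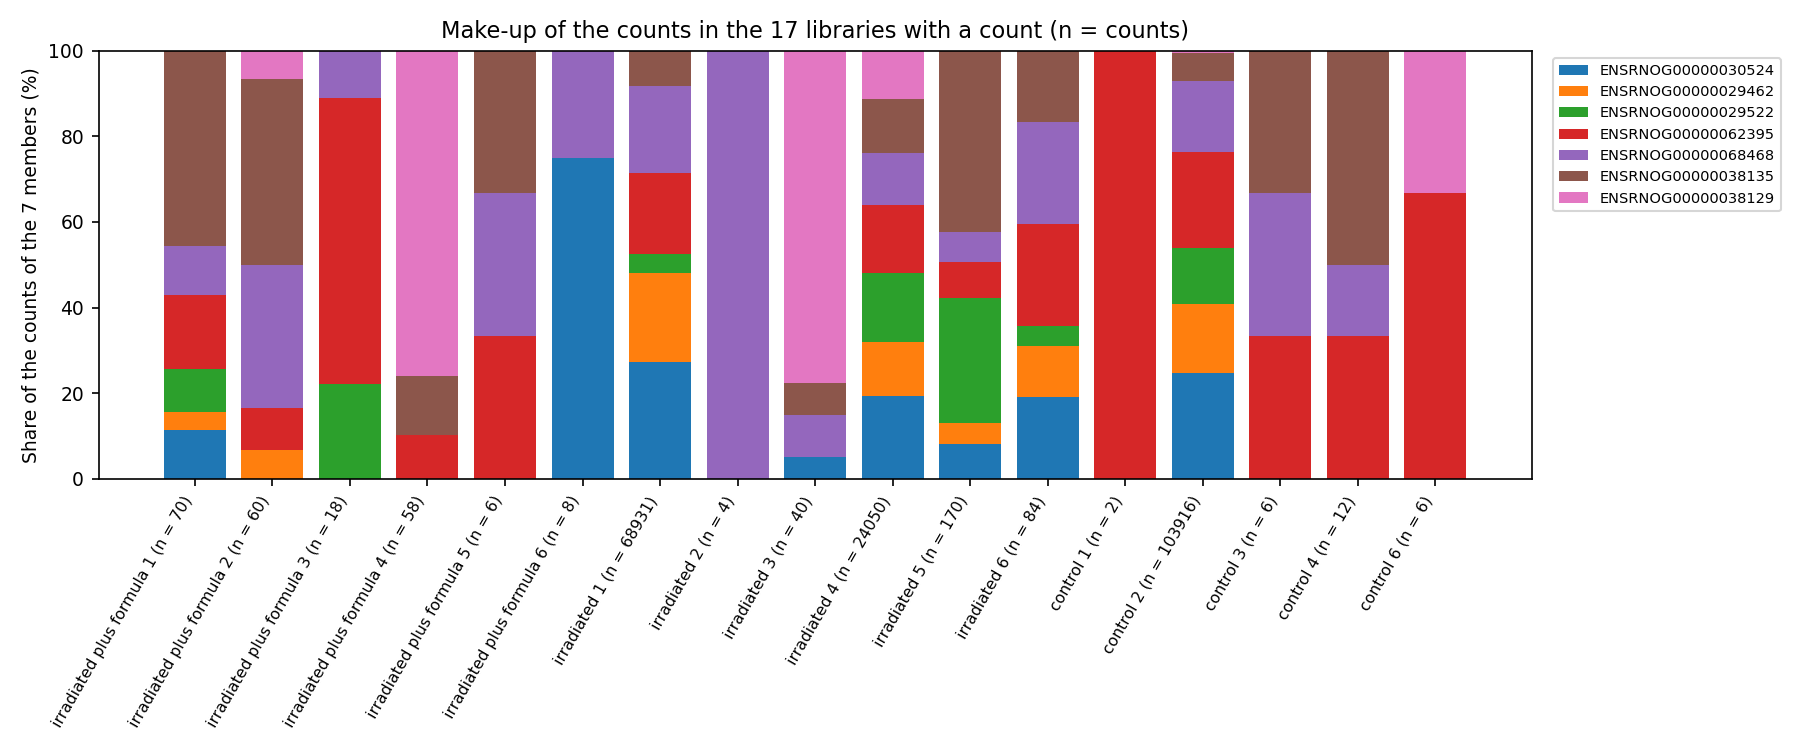
Share of the 7 members' summed counts held by each member, in percent (vertical axis), in the 17 libraries with a count; n under each bar is the cluster's count and each colour is a member. ENSRNOG00000038135 takes 42.4 to 45.7% in irradiated plus formula 1, irradiated plus formula 2 and irradiated 5 and 6.64 to 12.8% in irradiated 1, irradiated 4 and control 2, and bars with few counts vary most.

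Per kilobase of annotated exon, the order of the members was not the same in the high libraries. In irradiated 1, ENSRNOG00000029462 led with 1459 CPM per kb. In irradiated 4, ENSRNOG00000029522 led with 318 CPM per kb. In control 2, ENSRNOG00000062395 led with 1955 CPM per kb, ahead of ENSRNOG00000029462 at 1665 and ENSRNOG00000030524 at 1599 CPM per kb. The order among the members with 2 exons therefore changed from library to library and no fixed ranking can be given. ENSRNOG00000038135, at 307, 145 and 359 CPM per kb in irradiated 1, irradiated 4 and control 2, was below 4 of the 5 members with 2 exons in irradiated 1 and below all 5 in irradiated 4 and control 2.

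ENSRNOG00000038129, a member by place and level only, did not follow the rest of the cluster. Without it the summed level was 1852 CPM in irradiated 1, 507 CPM in irradiated 4 and 2712 CPM in control 2. It had no count in irradiated 1, where the limit of a count of 0 is 0.0806 CPM and the other 6 members summed to 1852 CPM. It was highest in irradiated 4, at 63.9 CPM, with 12.8 CPM in control 2, so the order of those libraries was the opposite of that of the other members. The next values were 1.02 CPM in irradiated plus formula 4, from 44 counts, and 0.770 CPM in irradiated 3, from 31 counts. In both of these the other 6 members were scarce, with sums of 0.326 and 0.224 CPM. Both sums lay within the low libraries' ranges, 0.179 to 1.81 CPM in irradiated plus formula and 0.110 to 4.65 CPM in irradiated ones.

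The likeness of 2 genes was measured as the overlap of their library profiles: each profile gives the share of a gene's 18-library sum held by each library, and the smaller share is summed over the libraries. The first 6 members overlapped each other by 72.7 to 98.4%, highest between ENSRNOG00000029462 and ENSRNOG00000068468. ENSRNOG00000038129 overlapped them by only 24 to 34.1%. All these values rest on the same 3 libraries and describe them, with no test.

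**Figure D4:**
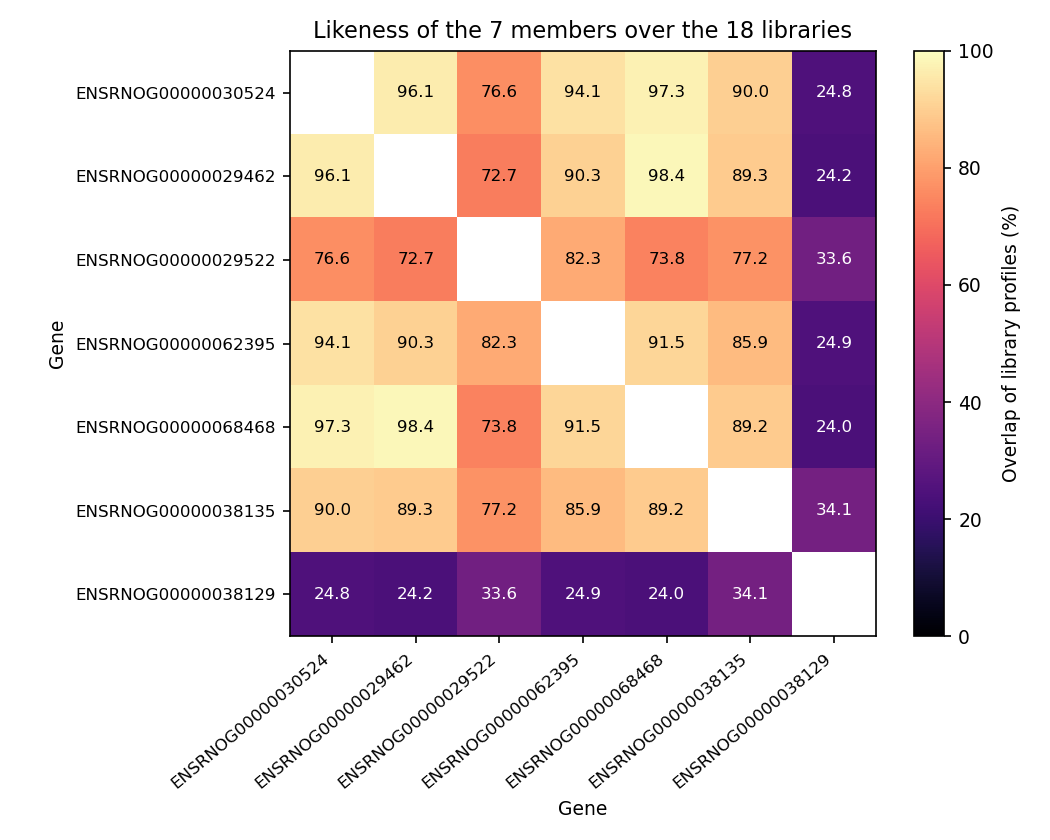
Overlap of library profiles, in percent, between each pair of members, over 18 libraries. The first 6 members overlap by 72.7 to 98.4% and ENSRNOG00000038129 by 24 to 34.1% with each of them; ENSRNOG00000029522 has the lowest overlaps among the first 6.

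Outside the interval, 11978 genes reached 10 CPM in at least 1 library, and their median overlap with the cluster's summed profile was 19.5%. An overlap of at least 80% was found for 29 of them (0.242%), on 12 chromosomes. The closest was ENSRNOG00000042721, at 221103878 to 221138553 on the plus strand of chromosome 2, with an overlap of 97.4%. It stood at 10.3 CPM in irradiated 1, 4.03 CPM in irradiated 4 and 15.3 CPM in control 2, and at most 0.0208 CPM elsewhere. Among the 10 closest genes 4 lie on chromosome 1, 2 each on chromosomes 6 and 7, and 1 each on chromosomes 2 and 14, none on chromosome 16. Their overlaps were 85.7 to 97.4%.

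For ENSRNOG00000038129, compared in the same way after its own pattern was seen, 20 of the 11978 genes (0.167%) overlapped by at least 80%. Of these, 8 lie on chromosome 4 and 7 on chromosome 6, and the share of all 11978 genes on these chromosomes was not counted. The 10 closest genes lie on these chromosomes only, 6 on chromosome 4 and 4 on chromosome 6. The closest, ENSRNOG00000069751 at 135848437 to 135848907 on the minus strand of chromosome 6, overlapped by 92.0%, with 38.0 CPM in irradiated 4, 4.09 CPM in control 2 and 0 in irradiated 1. None of these 10 is among the 10 genes closest to the cluster's summed profile.

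Irradiation was asked about first. Setting irradiated against control libraries, 0 of 7 members passed an adjusted p below 0.05 (edgeR, quasi-likelihood test), where 0% of the 16244 genes tested passed, and DESeq2 and limma-voom each called 0 members and 0% of all genes. At an unadjusted p below 0.05 there were 0 members in edgeR, against 2.04% of all genes, and 0 in DESeq2, against 2.58%. In limma-voom there were 2 members, against 11.2% of all genes, and in edgeR without control 2 there were 7, against 13.6%. These counts carry no weight, given how the members were chosen. The fitted log2 fold changes lay between -0.86, for ENSRNOG00000029522, and 2.2, for ENSRNOG00000038129. In limma-voom all 7 were positive, from 1.29 to 4.76. For ENSRNOG00000030524 the log2 fold change was 0.17 (SE 2.26, edgeR adjusted p = 0.998), with an approximate 95% interval from -4.27 to 4.61, so changes of many fold in either direction were within the error. The sign rested on single libraries. Without control 2 all 7 fitted values were positive, from 9.32 to 15.1, and without irradiated 1 those of 6 were negative. None was called in either case, where 0% of all genes were called. The groups were free of overlap in 0 of 7 members, against 0.0246% of all genes.

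The formula was asked about by setting irradiated plus formula against irradiated libraries. Here 0 of 7 members passed in edgeR, where 0% of the 16244 genes passed. DESeq2 called 0 members and 0.0677% of all genes, and limma-voom 0 members and 0% of all genes. All 7 fitted log2 fold changes were negative, from -11.2 for ENSRNOG00000029462 to -5.54 for ENSRNOG00000038129. In limma-voom they were far smaller, from -2.91 to -0.73, and the reason was not tested. An unadjusted p below 0.05 was found in edgeR for 7 members and 5.98% of all genes. In DESeq2 it was found for 6 members and 8.22% of all genes, and in limma-voom for 0 members and 5.36%. None of these counts carries weight, given how the members were chosen. The edgeR adjusted p was 0.738 for each member. ENSRNOG00000030524 had 0 to 0.207 CPM in irradiated plus formula libraries and 0 to 505 CPM in irradiated ones, and its count was 0 in 4 of 6 irradiated plus formula and 1 of 6 irradiated libraries (log2 fold change -10.7, SE 3.59, edgeR adjusted p = 0.738). These sizes rest on irradiated 1 and irradiated 4: without irradiated 1, irradiated 4 and control 2, only 3 members stayed above 1 CPM in a library and could be tested, with log2 fold changes of -3.20 to -0.04 and an edgeR adjusted p of 0.9998. The groups were free of overlap in 0 of 7 members, against 0.142% of all genes.

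Last, irradiated plus formula was set against control, a comparison that shares its libraries with the other 2. Again 0 of 7 members passed in edgeR, against 0.0123% of the genes tested. In limma-voom 0 members and 3.39% of all genes passed. DESeq2 called 0.308% of all genes and 1 member, ENSRNOG00000062395 (log2 fold change -9.06, SE 2.30, DESeq2 adjusted p = 0.034; edgeR adjusted p = 0.713, with a range of 0.034 to 0.994 over all alternatives for this gene). It had 0 to 0.310 CPM in irradiated plus formula libraries and 0 to 610 CPM in control ones, and only control 2 stood above 0.114 CPM. All 7 edgeR log2 fold changes were negative, from -10.8 to -3.34, and those of limma-voom were all positive, from 0.56 to 2.24. An unadjusted p below 0.05 was found in edgeR for 6 members and 6.17% of all genes. In DESeq2 it was found for 6 members and 7.08% of all genes, and in limma-voom for 0 members and 22.4%. These counts again carry no weight.

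That direction rested on 1 library. Without control 2 all 7 fitted log2 fold changes turned positive, from 1.47 for ENSRNOG00000062395 to 4.39 for ENSRNOG00000030524. None was called, against 0.031% of all genes. The remaining 5 control libraries had cluster sums of 0 to 0.273 CPM, from 0 to 12 counts, and the 6 irradiated plus formula libraries had 0.179 to 1.81 CPM, from 6 to 70 counts, so these ranges overlapped close to the limit of detection. With all libraries, the groups were free of overlap in 0 of 7 members, against 0.757% of all genes. Where a group is at or near 0, the size of a fitted fold change depends on the prior count that edgeR adds, and it is no bound.

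**Figure D5:**
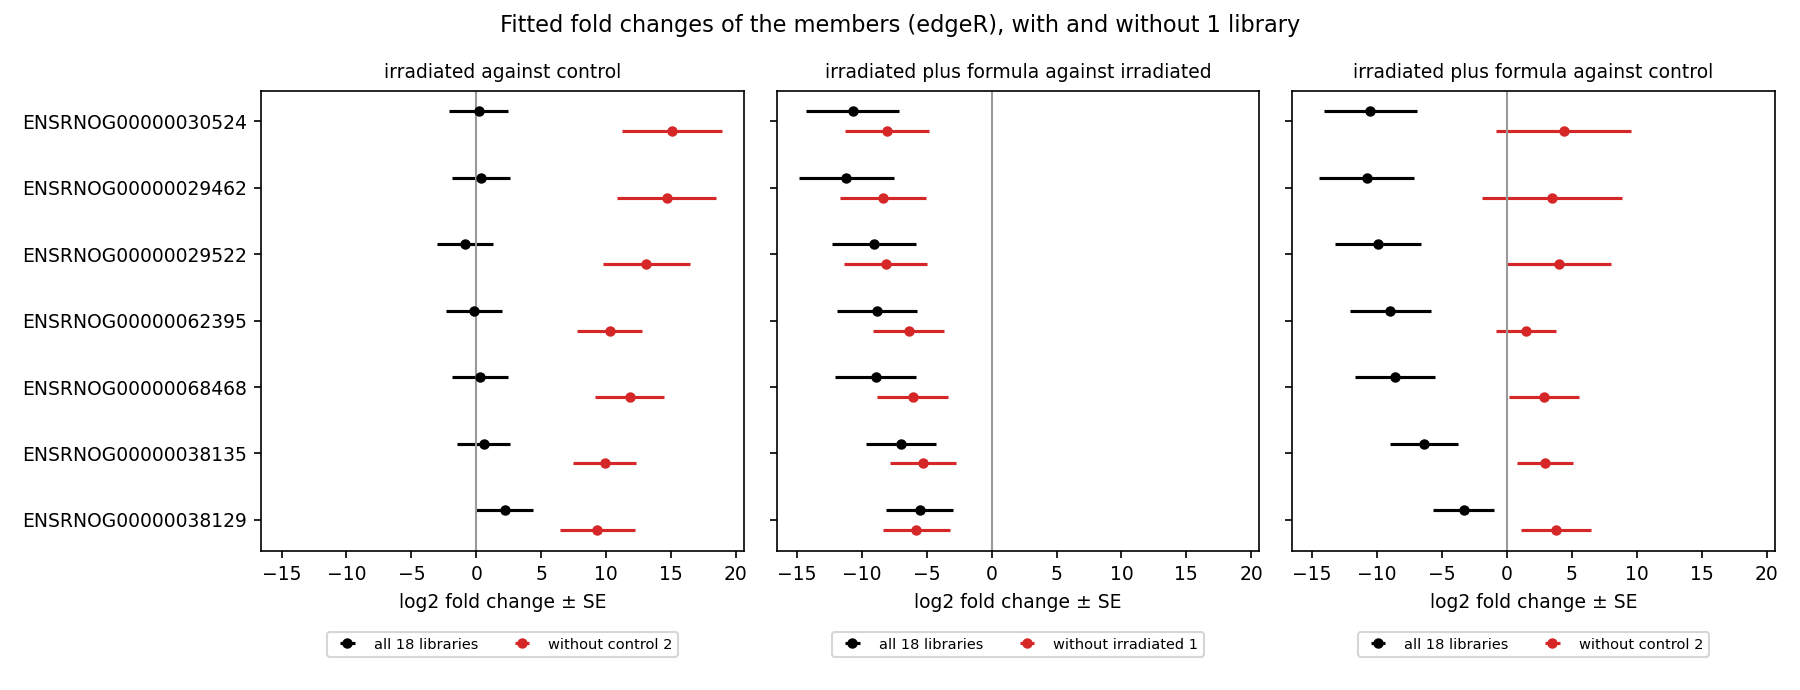
Fitted log2 fold change ± SE (horizontal axis) of each member from edgeR in the 3 comparisons, with all 18 libraries (black) and without 1 library (red): control 2 in the outer panels and irradiated 1 in the middle one. For irradiated plus formula against control the values lie between -10.8 and -3.34 with all libraries and between 1.47 and 4.39 without control 2.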

How the data were processed

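Raw gene counts were deposited by the authors. Per the file headers they come from featureCounts 2.1.1, run on paired reads against release 110 of the Ensembl annotation of mRatBN7.2. Both ends had to align and chimeric pairs were left out. No option for strand, multi-mapping reads or read pairs was set, so sense and antisense reads are not separated, and counts of near-identical genes are uncertain. The submitters' processing notes also list STAR, SAMtools, fastp and FastQC; their versions are not given in the sources used here. Between 66.9% and 74.6% of counts from 1 to below 40 in a library were even, as were 77.9% of the 68 member counts above 0. The number of unused per-sample columns was 0.

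CPM is the count over the library total. Counts were tested in R 4.3.3 with edgeR 4.0.16 (quasi-likelihood, TMM factors, all 18 libraries, no covariate) on the 16244 genes that reach 1 CPM in any library, with Benjamini-Hochberg adjustment over them. This filter differs from filterByExpr because that drops 4 of the 7 members. Standard errors are the absolute log2 fold change over the square root of F. The procedure was tested on simulated data. These used the same setting for the spread of every gene, so genes high in only a few libraries were not covered. DESeq2 1.42.0 and limma-voom (limma 3.58.1) with sample quality weights, other scalings, filters, a replicate block and left-out libraries were alternatives. The exonic length is deposited as another column, in bases. Marker lists by symbol could not be used, since 0 IDs matched. Genes named in the text are the members, genes of the interval, and the closest of the 10 genes most like the cluster by profile overlap. Those most like ENSRNOG00000038129 were added after its values were seen. Promoter sequences are from RefSeq (GRCr8). The members and lists were chosen with earlier results of these data known.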

Additional observations from a re-analysis of the deposited data

Results flagged for a closer look

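Each member and the cluster's sum was checked in each group for a library far from the other 5, and 15 of 24 checks found one, where chance gives about 1.2 for unselected values. That number is no yardstick here: the members were chosen for a high level in at least 1 library, which in most cases is the library found, and the checks share libraries. Control 2 stood apart in its group for the sum, at 2725 CPM, and for all 7 members: ENSRNOG00000030524 at 675 CPM, ENSRNOG00000029462 at 439 CPM, ENSRNOG00000029522 at 353 CPM, ENSRNOG00000062395 at 610 CPM, ENSRNOG00000068468 at 454 CPM, ENSRNOG00000038135 at 181 CPM and ENSRNOG00000038129 at 12.8 CPM. Irradiated 1 stood apart for the sum, at 1852 CPM, and for ENSRNOG00000030524 at 505 CPM, ENSRNOG00000029462 at 385 CPM, ENSRNOG00000062395 at 350 CPM and ENSRNOG00000068468 at 375 CPM. For ENSRNOG00000038129 it was irradiated 4 that stood apart, at 63.9 CPM, and irradiated plus formula 4, at 1.02 CPM.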

How the results depend on the processing

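In every alternative 0 members and 0% of all genes were called for irradiated against control. When irradiated plus formula was set against irradiated, 0 members were called in every alternative. There 0% of all genes were called, except 0.0677% in DESeq2. For irradiated plus formula against control the number of members was 1 with DESeq2 and 0 in all others, leaving out 1 library included (0 to 0). The share of all genes called there lay between 0.00616% with the replicate block and 3.39% in limma-voom. DESeq2 gave no adjusted p for ENSRNOG00000038129. The replicate block called 0 members in each comparison, where at most 0.00616% of all genes were called. The replicate numbers were not taken as pairing: deviations of same-numbered libraries correlated at -0.51 to 0.64 over 18 pairs, 6 of them above 0.1. For 4 of 18 libraries the best match was one of the same number. With filterByExpr 3 members were tested. The rule gave 7 genes at 1 CPM and 6 at a level of 100 CPM. Mean cluster levels moved by less than the SD between replicates under TMM scaling and without the mitochondrial chromosome. That SD exceeded the mean in irradiated libraries (744 against 405 CPM) and in control libraries (1112 against 454 CPM), so the check cannot show a stable level there. Under TMM scaling the sum moved from 2725 to 2267 CPM in control 2, from 1852 to 2012 in irradiated 1 and from 570 to 433 in irradiated 4.

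Signs depended on the setting, and the cause was not tested. For irradiated against control, ENSRNOG00000029522 had log2 fold changes of 3.74 in limma-voom, 5.94 with the replicate block and 7.23 without control 2, irradiated 1 and irradiated 4 together, ENSRNOG00000062395 to 1.88 in limma-voom and 4.95 with the block, and with library totals only ENSRNOG00000030524 was at -0.13 and ENSRNOG00000068468 at -0.028. For irradiated plus formula against control, limma-voom gave 1.85 for ENSRNOG00000030524, 1.20 for ENSRNOG00000029462, 1.88 for ENSRNOG00000029522, 1.08 for ENSRNOG00000062395, 1.69 for ENSRNOG00000068468, 2.24 for ENSRNOG00000038135 and 0.56 for ENSRNOG00000038129. Without those 3 libraries together it was 4.03 for ENSRNOG00000029522, 2.94 for ENSRNOG00000038135 and 3.81 for ENSRNOG00000038129.

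With 1 library left out, log2 fold changes of irradiated against control ranged from -2.46 to 15.1 for ENSRNOG00000030524, -2.48 to 14.7 for ENSRNOG00000029462, -1.78 to 13.1 for ENSRNOG00000029522, -2.60 to 10.3 for ENSRNOG00000062395, -2.55 to 11.8 for ENSRNOG00000068468, -1.11 to 9.88 for ENSRNOG00000038135 and -3.60 to 9.32 for ENSRNOG00000038129. The highest values were without control 2, the lowest without irradiated 1, or irradiated 4 for ENSRNOG00000038129. For irradiated plus formula against control they ranged from -11.4 to 4.39, -11.7 to 3.47, -11.0 to 4.04, -9.28 to 1.47, -9.72 to 2.88, -6.98 to 2.92 and -6.12 to 3.79 in the same order of genes, the highest again without control 2. For irradiated plus formula against irradiated only ENSRNOG00000038129 changed sign, in a range of -8.32 to 0.24, the highest without irradiated 4.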
